A study of Mus musculus with 16 samples.

Results

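Splenic B cells of the AM14 strain that lack TLR9 were compared with B cells of the same strain that have it, 6 h after addition of PL2-3. The cells without TLR9 were TLR9 KO and TLR7 TLR9 KO (double knockout) B cells, and the cells with TLR9 were WT and TLR7 KO B cells, each read on 1 array, so that 4 of the 16 arrays of the series entered the comparison as 2 against 2. The same 4 genotypes before stimulation (0 h, labelled untreated) served as the comparison for offsets between slides. AM14 B cells carry an antigen receptor against IgG, and PL2-3 is a monoclonal IgG against chromatin. On each 2-colour Agilent array the sample carried Cy5, and a pool of RNA from unstimulated AM14 B cells of all 4 genotypes carried Cy3. Levels are therefore given as log2 of sample over pool. Genes on chromosomes X and Y were left out. The labels leave out the mice's age and sex, how B cells were purified, how much PL2-3 was added and any pooling of animals.

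TLR9 is an endosomal receptor for DNA, and TLR7, a relative, recognises single-stranded RNA. In AM14 B cells an antigen receptor that binds IgG carries chromatin-containing immune complexes into the endosome, where these receptors can meet their ligands. Both receptors signal through the adaptor MyD88 to NF-κB and MAP kinases, which drive early cytokine and activation genes, while the antigen receptor has a signal of its own through tyrosine kinases and calcium.

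WT and TLR7 KO RNA lay on 1 slide and TLR9 KO and double knockout RNA on the other, so absence of TLR9 and slide cannot be told apart at any single time. No genotype was repeated at a given time, and precision is limited by how few arrays there are. The p-values of limma set the difference between cells without and with TLR9 against the spread within each of these groups, which also holds the effect of TLR7. An exact permutation of 2 arrays against 2 cannot go below p = 0.333. The share of spots well above background in Cy5 at 6 h was 50.6% in TLR9 KO and 56.4% in double knockout cells, against 47% in WT and 49.2% in TLR7 KO cells. At 0 h it was 37.4% in TLR9 KO and 47.2% in double knockout cells, against 50.3% in WT and 49.7% in TLR7 KO cells. The mature B cell identity list had 25 of 25 genes above the filter on dim probes. Genes of other cells were also measured, with 15 of 17 T cell markers, 15 of 17 myeloid markers and 12 of 13 NK and plasmacytoid markers passing it.

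At 6 h, cells without TLR9 had lower transcripts of cytokines (Lta, Ebi3, Tnf, Il2), of the inhibitory receptor Lag3 and of the AP-1 subunits Jun and Batf. Transcripts of the signal regulator Rgs2, the protease Plau, the chemokine receptor Ccr6 and the AP-1 subunit Fosl2 were higher. Of 19626 autosomal genes tested, 1135 passed an adjusted p of 0.05 in limma (5.78%), 734 higher (3.74%) and 401 lower (2.04%) without TLR9. Of the genes called, 249 differed at least 2-fold, 129 of them higher and 120 lower. The median size of a called difference was 0.69 log2 units. The arrays without TLR9 did not overlap those with TLR9 for 54.6% of all genes tested, so non-overlap alone does not set a gene apart. The count depended on the processing and on single arrays. It was 220 without the WT array and 238 without the TLR7 KO array, where the lone array left in a group is assumed to vary like the other group, and 0 with the scanner's processed signals, where 3776 genes had an unadjusted p below 0.05. Centring each array on its median instead of loess gave 6591 calls, of which 553 were higher (8.39%, against 64.7% here), with a median over all genes of -0.23.

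**Figure D1:**
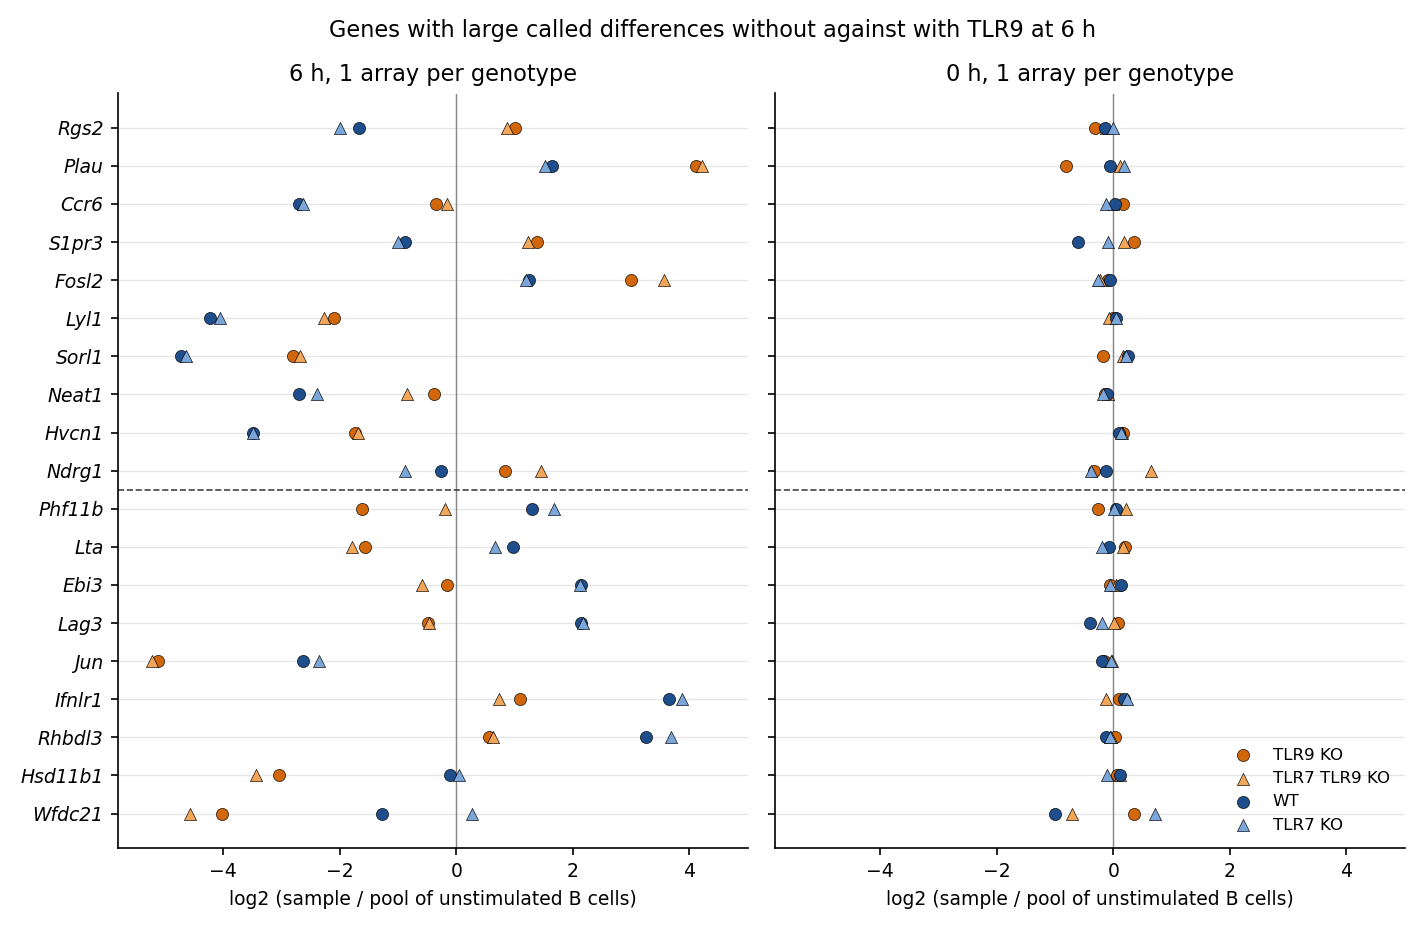
Log2 of sample over pool on each array at 6 h (left) and 0 h (right) for the 10 genes with the largest higher differences (above the dashed line) and 9 of the 10 with the largest lower differences (below it) that passed limma. Orange symbols are the arrays without TLR9 and blue symbols the arrays with TLR9, 1 point per array; at 6 h the colours are apart for all 19 genes, and at 0 h Wfdc21 lies between -1.0 and 0.72.

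Rgs2, which switches off G-protein signals, was 1.0 and 0.86 on the TLR9 KO and double knockout arrays, against -1.67 and -2.0 on the WT and TLR7 KO arrays. Both arrays without TLR9 stood above the pool and both with TLR9 below it. The difference was 2.77 ± 0.13 (SE, limma adjusted p = 0.000700), and a second Rgs2 probe gave 0.80. Plau, the urokinase plasminogen activator, stood at 4.11 in TLR9 KO and 4.22 in double knockout cells, against 1.65 in WT and 1.53 in TLR7 KO cells, a difference of 2.57 ± 0.10 (limma adjusted p = 0.000556). Plau was thus above the pool on all 4 arrays at 6 h, and higher on both arrays without TLR9. Ccr6, the receptor for the chemokine CCL20, was -0.35 and -0.17 in TLR9 KO and double knockout cells, against -2.70 and -2.63 in WT and TLR7 KO cells. It had stayed near the level of unstimulated cells without TLR9 and lay 5.3-fold lower with it (2.41 ± 0.11, limma adjusted p = 0.000634). S1pr3, a sphingosine-1-phosphate receptor of marginal zone B cells, was 1.38 and 1.23 without TLR9 against -0.88 and -1.0 with it. Its 0 h difference was 0.61 in the same direction, from 0.36 in TLR9 KO and 0.17 in double knockout cells against -0.60 in WT and -0.09 in TLR7 KO cells. Fosl2 was 3.00 and 3.57 without TLR9, against 1.25 and 1.20 with it, while another Fosl2 probe differed by 0.21. The other 5 of the 10 largest higher genes differed by 1.72 to 1.96: the stress-responsive Ndrg1, the voltage-gated proton channel Hvcn1, the paraspeckle RNA Neat1, the sorting receptor Sorl1 and the transcription factor Lyl1. Of these, Ndrg1 had the widest spread, at 0.84 in TLR9 KO and 1.46 in double knockout cells, against -0.25 in WT and -0.89 in TLR7 KO cells.

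The gene with the largest lower difference was Wfdc21, which encodes a secreted WAP-domain protein, at -4.02 in TLR9 KO and -4.57 in double knockout cells against -1.27 in WT and 0.27 in TLR7 KO cells. The difference was -3.79 ± 0.46 (limma adjusted p = 0.00872), but the arrays with TLR9 lay far apart and the 0 h arrays also spread widely. Hsd11b1, which regenerates active glucocorticoid inside cells, was far below the pool without TLR9, at -3.04 and -3.44 in TLR9 KO and double knockout cells, and near it with TLR9, at -0.12 and 0.05 in WT and TLR7 KO cells. The difference was -3.21 ± 0.15 (limma adjusted p = 0.000634), against 0.09 at 0 h. Lag3, an inhibitory receptor that binds MHC class II, was -0.49 and -0.47 in TLR9 KO and double knockout cells, against 2.14 and 2.18 in WT and TLR7 KO cells. The arrays of each group lay close together, and the difference of -2.64 ± 0.09 had a limma adjusted p of 0.000351. Ifnlr1, a chain of the receptor for type III interferons, Rhbdl3, a rhomboid-like membrane protein, and Phf11b, a PHD-finger protein, differed by -2.85, -2.87 and -2.40. Jun was below the pool on every array at 6 h, at -5.12 and -5.22 without TLR9, against -2.63 and -2.36 with it.

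Promoters are shown for 6 of these genes and their neighbours on the lists, since genes of NF-κB and AP-1 factors were among those called. The sequences are RefSeq's for the GRCm38.p6 build, on the strand of the gene, from 250 bases before to 50 bases after an annotated start. Capitals mark matches, on either strand, to the κB consensus or to the AP-1 motif TGANTCA. Overlapping matches run together. The cytokine subunit gene Ebi3 (chr17:55952373-55952672, plus strand) and the NF-κB inhibitor gene Tnfaip3 (chr10:19015361-19015660, minus strand) were lower without TLR9, and so was Tnf (chr17:35201958-35202257, minus strand), which has no match in this window. Rgs2 (chr1:144004100-144004399, minus strand, no match), Ccr6 (chr17:8242276-8242575, plus strand) and Fosl2 (chr5:32136222-32136521, plus strand) were higher. Tnfaip3 and Ccr6 each have another annotated start with no match.
Ebi3: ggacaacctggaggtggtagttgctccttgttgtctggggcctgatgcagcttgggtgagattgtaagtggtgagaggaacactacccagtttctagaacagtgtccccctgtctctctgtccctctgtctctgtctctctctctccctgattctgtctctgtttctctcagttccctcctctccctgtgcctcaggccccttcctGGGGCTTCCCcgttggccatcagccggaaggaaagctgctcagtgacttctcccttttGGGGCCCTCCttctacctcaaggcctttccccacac
Tnfaip3: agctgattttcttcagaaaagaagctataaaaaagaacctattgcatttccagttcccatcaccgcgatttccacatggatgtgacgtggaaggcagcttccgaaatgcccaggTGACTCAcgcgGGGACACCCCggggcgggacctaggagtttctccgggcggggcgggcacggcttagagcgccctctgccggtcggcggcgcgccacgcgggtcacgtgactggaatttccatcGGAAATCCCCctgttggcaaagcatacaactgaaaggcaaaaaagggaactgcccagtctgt
Tnf: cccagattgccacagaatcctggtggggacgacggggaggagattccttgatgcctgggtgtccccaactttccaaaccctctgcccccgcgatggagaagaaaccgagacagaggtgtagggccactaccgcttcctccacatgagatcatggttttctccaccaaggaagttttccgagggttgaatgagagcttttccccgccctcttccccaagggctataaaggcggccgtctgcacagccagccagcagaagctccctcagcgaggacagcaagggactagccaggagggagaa
Rgs2: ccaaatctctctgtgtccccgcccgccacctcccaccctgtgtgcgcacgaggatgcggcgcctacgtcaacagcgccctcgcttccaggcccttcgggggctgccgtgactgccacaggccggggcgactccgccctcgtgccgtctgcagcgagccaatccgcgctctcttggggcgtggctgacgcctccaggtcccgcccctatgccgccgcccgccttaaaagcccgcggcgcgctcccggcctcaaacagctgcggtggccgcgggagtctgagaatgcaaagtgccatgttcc
Ccr6: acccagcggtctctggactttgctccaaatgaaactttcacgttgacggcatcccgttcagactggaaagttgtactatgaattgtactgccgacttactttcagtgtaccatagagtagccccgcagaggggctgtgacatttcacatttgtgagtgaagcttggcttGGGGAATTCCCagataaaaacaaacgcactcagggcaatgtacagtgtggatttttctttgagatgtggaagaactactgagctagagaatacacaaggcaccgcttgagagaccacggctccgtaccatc
Fosl2: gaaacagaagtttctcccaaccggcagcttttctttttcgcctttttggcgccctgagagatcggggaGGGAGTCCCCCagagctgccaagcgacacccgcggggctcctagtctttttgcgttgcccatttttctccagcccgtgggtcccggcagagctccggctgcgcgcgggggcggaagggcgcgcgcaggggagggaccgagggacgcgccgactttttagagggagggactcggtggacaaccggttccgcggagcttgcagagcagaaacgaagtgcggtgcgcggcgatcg
The first κB match of Ebi3 begins 44 bases before its start, and those of Tnfaip3 begin 125 and 12 bases before its own, with the AP-1 match 136 bases before. The table held promoters for 498 of the 734 higher genes and 253 of the 401 lower genes. The κB consensus was in 12.9% of promoters of higher genes and 11% of those of lower genes, against 10.2% of promoters of all genes tested and 8.46% of all 32851 promoters. The AP-1 motif was in 5.81% of promoters of higher genes and 6.44% of those of lower genes, against 5.42% of those of genes tested and 7.81% of all promoters. A match is a description of the letters and not evidence that a factor binds there.

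Cytokine and chemokine genes were lower without TLR9 more often than higher. Of 21 listed, 17 were tested, 8 were lower and 1 was higher, and 8 were not called (all genes: 3.74% higher, 2.04% lower). With median centring 11 were lower and 1 was higher. The list's median difference was -0.82, against 0 over all genes tested, and it was -1.28 with median centring and -0.80 with processed signals. Lta, which encodes lymphotoxin alpha, was -1.57 and -1.79 in TLR9 KO and double knockout cells, against 0.97 and 0.66 in WT and TLR7 KO cells. It lay below the pool without TLR9 and above it with TLR9, a difference of -2.50 ± 0.14 (limma adjusted p = 0.000950). Tnf, a central inflammatory cytokine, was 0.65 and 0.17 in TLR9 KO and double knockout cells, against 2.58 and 2.35 in WT and TLR7 KO cells (-2.06 ± 0.17, limma adjusted p = 0.00300). Ebi3, a subunit of the interleukins 27 and 35, was -0.17 and -0.59 in TLR9 KO and double knockout cells and 2.13 on both arrays with TLR9. Ccl4, a chemokine for T cells and monocytes, was high on all 4 arrays, at 6.69 and 6.11 without TLR9 against 8.32 and 8.56 with it (-2.04 ± 0.20, limma adjusted p = 0.00397). Its 0 h difference was -0.61. Il2, a T cell growth factor that activated B cells also transcribe, was 1.30 and 1.75 without TLR9 against 3.82 and 3.34 with it. Il6, a cytokine of B cell help, was 0.29 and 0.19 without TLR9 against 1.16 and 1.67 with it, and 1 of the 2 arrays without TLR9 did not read it well above background. The membrane-bound chemokine Cxcl16 differed by -1.02. Il12b, a subunit of interleukin 12, was not well above background without TLR9 and was at least 2.13-fold lower in Cy5, a bound taken against the background level and open to dye bias. Csf1, a growth factor of macrophages, went the other way, at 1.90 and 2.61 without TLR9 against 0.93 and 0.96 with it. Its 3 probes gave differences between 0.27 and 1.31. Ccl3, a close relative of Ccl4, was 3.61 and 3.36 without TLR9 against 3.90 and 4.07 with it, a difference of -0.51 that did not pass (limma adjusted p = 0.0689). The 0 h difference of Ccl3 was -0.80. Il10 was too dim to be tested.

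Of 20 genes for NF-κB subunits, inhibitors and signalling partners, 6 were lower, 3 higher and 11 not called (all genes: 3.74% higher, 2.04% lower). Nfkbiz, an inducible nuclear IκB protein, was -0.23 and -0.37 in TLR9 KO and double knockout cells, against 1.43 and 1.16 in WT and TLR7 KO cells (-1.60 ± 0.12, limma adjusted p = 0.00239). It rose by 1.47 between 0 and 6 h in cells with TLR9 and changed by -0.28 in cells without. Nfkb1, the gene for p105 and p50, was 0.95 and 0.99 without TLR9 against 2.12 and 1.84 with it, and both its probes were lower (-1.01 and -0.87). Tnfaip3, the deubiquitinase A20 that restrains NF-κB, was 1.94 and 1.5 without TLR9 against 2.68 and 2.80 with it. The kinase gene Map3k8, the adaptor gene Traf1 and Tnip1, whose product binds A20, differed by -0.96, -0.87 and -0.56. The higher members were Nfkbid and Bcl3, which encode further nuclear IκB proteins, and Relb, a subunit of the alternative pathway, by 1.06, 1.04 and 0.51. The list's median was -0.06, with members spread from -1.60 to 1.06. With median centring the median was -0.58, 11 members were lower and 1 was higher, and Nfkbid (0.58, limma adjusted p = 0.0702) and Relb (0.02, limma adjusted p = 0.932) were no longer called.

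Early targets of the antigen receptor went both ways, with 6 higher, 5 lower and 14 not called of 25 (all genes: 3.74% higher, 2.04% lower), and 6 higher and 9 lower with median centring. Batf, an AP-1 partner needed for class switching, was 2.33 and 1.77 in TLR9 KO and double knockout cells, against 3.82 and 4.09 in WT and TLR7 KO cells (-1.90 ± 0.19, limma adjusted p = 0.00451). With Jun it was lower by more than 1 log2 unit, while Fosl2, Spry1, Dusp6, Nr4a2 and Nr4a1 were higher by more than 1. Spry1 and Dusp6 encode feedback inhibitors of the MAP kinase ERK. Spry1 was 2.54 and 3.15 without TLR9 against 1.5 and 1.24 with it, and Dusp6 was -2.76 and -2.54 against -4.25 and -3.93. The orphan nuclear receptor genes Nr4a1 and Nr4a2, induced by antigen receptor signals, differed by 1.07 and 1.16, and the phosphatase gene Dusp1 by 0.60. Nr4a1 spread widely at 0 h, at -0.57 in TLR9 KO and 0.84 in double knockout cells, against 0.42 in WT and -0.50 in TLR7 KO cells. Ier5 and Fosl1 differed by -0.64 and -0.58, and Ier3, which was not well above background without TLR9, was at least 1.65-fold lower in Cy5 (limma adjusted p of the ratio 0.0460). Egr2, another early target, was 5.29 and 5.49 without TLR9 against 5.17 and 5.03 with it, a difference of 0.29 that did not pass (limma adjusted p = 0.199). The early marker Cd69 was 1.37 and 1.61 without TLR9 against 1.54 and 1.53 with it, and its difference of -0.05 did not pass (limma adjusted p = 0.841).

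Among 21 activation and costimulation genes, 6 were lower and 3 higher (all genes: 3.74% higher, 2.04% lower), and 12 were lower and 3 higher with median centring. Beside Lag3, the lower ones were genes of ligands and adhesion: Pdcd1lg2, which encodes the PD-1 ligand PD-L2, Cd274, which encodes the other one, PD-L1, Icosl, the ligand of ICOS, the self-ligand receptor gene Slamf1 and the hyaluronan receptor gene Cd44. Pdcd1lg2 was 1.39 and 1.33 in TLR9 KO and double knockout cells, against 3.12 and 2.97 in WT and TLR7 KO cells (-1.68 ± 0.10, limma adjusted p = 0.00116), and its 2 probes gave -1.68 and -1.60. Cd274 was 1.14 and 1.18 without TLR9 against 2.01 and 2.02 with it. Icosl differed by -1.14 on the brightest probe and 0.03 on the other, so its probes did not show the same difference. Cd86, a ligand of CD28, was 1.03 and 1.62 without TLR9 against -0.28 and -0.40 with it (1.66 ± 0.19, limma adjusted p = 0.00707), with a 0 h difference of -0.37. Both arrays without TLR9 were above the pool and both with TLR9 were below it. Tnfrsf18, which encodes the receptor GITR, and the death receptor gene Fas differed by 1.56 and 0.87.

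**Figure D2:**
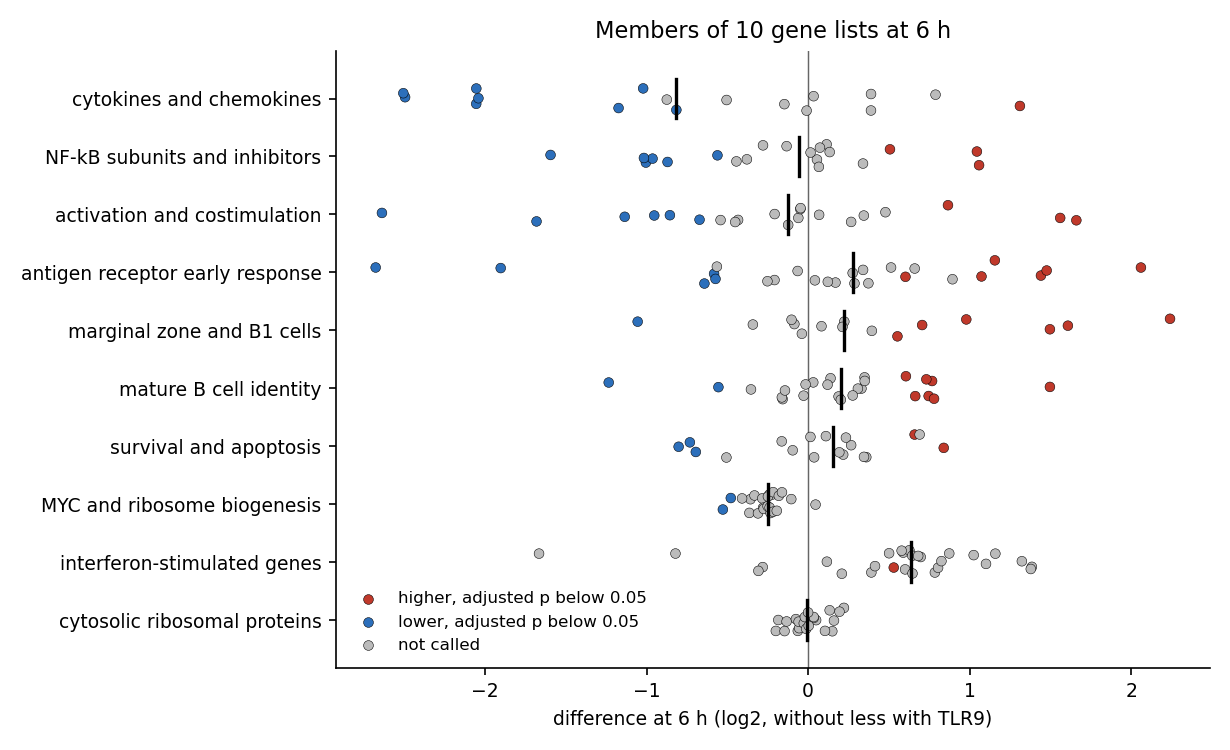
Difference at 6 h between cells without and with TLR9 (log2) for each tested member of 10 gene lists, 1 point per gene, with the list's median as a black bar. Red and blue points passed limma at an adjusted p of 0.05 and grey points did not; cytokines and chemokines lie mostly to the left (median -0.82) and ribosomal protein genes cluster at 0 (median -0.01, and -0.64 with median centring).

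Genes of mature and marginal zone B cells had more higher than lower calls without TLR9, which for the mature B cell list depended on the scaling. The median level of the mature B cell list was below the pool on every array, at -1.87 and -2.02 in TLR9 KO and double knockout cells, against -1.93 and -2.03 in WT and TLR7 KO cells. Of 25 mature B cell identity genes, 7 were higher and 2 lower, and of 15 marginal zone and B1 genes tested, 6 were higher and 1 lower (all genes: 3.74% higher, 2.04% lower). With median centring 2 of the mature B cell genes were higher and 9 lower, and 5 of the marginal zone and B1 genes were higher and 3 lower. The medians were 0.20 and 0.22; with median centring they were -0.25 and 0.05. Cr2, the complement receptor CD21, which stands on both lists, was -2.17 and -2.69 in TLR9 KO and double knockout cells, against -3.93 and -3.91 in WT and TLR7 KO cells. It was lower than in unstimulated cells on all 4 arrays and less so without TLR9 (1.5 ± 0.17, limma adjusted p = 0.00678). The antigen receptor signalling chains Cd79a and Cd79b differed by 0.61 and 0.78, the gene for CD20, Ms4a1, by 0.66, the low-affinity IgE receptor gene Fcer2a by 0.77, the adaptor gene Bank1 by 0.73 and the egress receptor gene S1pr1 by 0.75. With median centring Cd79a gave -0.01, and the calls of Cd79b (0.17), Ms4a1 (0.11), Fcer2a (0.27) and Bank1 (0.30) were lost, with limma adjusted p between 0.126 and 0.978 over these 5 genes. Ccr7, the receptor that draws B cells to the T cell zone, was lower, at 1.66 and 2.19 without TLR9 against 3.03 and 3.29 with it, and the B lineage factor gene Pax5 differed by -0.56. Cd5, a negative regulator of antigen receptor signals that marks B1 and T cells, was 1.90 and 2.09 without TLR9 against 0.33 and 0.44 with it (1.61 ± 0.11, limma adjusted p = 0.00152). The T cell marker genes Cd3d, Cd3e and Cd3g differed by -0.12, -0.11 and 0.16 and did not pass. The medians of the whole T cell list were -0.55 and -0.51 in TLR9 KO and double knockout cells, against -0.64 and -0.74 in WT and TLR7 KO cells. Dtx1, a regulator of Notch signals, Tm6sf1 and Cd300lf were higher by 0.98, 0.71 and 0.55 (Dtx1 at 6 h was not called with median centring, 0.53, limma adjusted p = 0.076), and the tetraspanin gene Cd9 was lower (-1.06).

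A few survival and T-bet related genes passed. Of 18 survival and apoptosis genes tested, 3 were lower and 2 higher (all genes: 3.74% higher, 2.04% lower), and 7 were lower and 1 higher with median centring. The anti-apoptotic genes Bcl2a1d, Bcl2l1 and Cflar differed by -0.80, -0.70 and -0.73. The BH3-only gene Bbc3, whose product is the death inducer PUMA, and the initiator caspase gene Casp9 differed by 0.84 and 0.66, and Casp9 was not called with median centring (0.37, limma adjusted p = 0.0802). Bcl2a1d belongs to a family of near-identical copies, so its probe may read more than 1 of them. Of 16 class switching and T-bet genes tested, 2 were lower and 1 higher (all genes: 3.74% higher, 2.04% lower), and 8 were lower and 1 higher with median centring. Tbx21, the gene for T-bet, was -0.38 and -0.05 in TLR9 KO and double knockout cells, against 0.92 and 0.53 in WT and TLR7 KO cells (-0.94 ± 0.17, limma adjusted p = 0.0286). Its partner Runx3 differed by -1.01, and Stat4, which transmits interleukin 12 signals, by 0.92. Among plasma cell genes, Sdc1, which encodes CD138, differed by -0.77, and the regulator Irf4 and the homing receptor Cxcr4 by 0.63 and 0.53. With median centring neither Irf4 (0.14, limma adjusted p = 0.516) nor Cxcr4 (0.15, limma adjusted p = 0.400) was called. Cxcr4 had a difference of 0.44 already at 0 h. Gadd45b, a stress gene induced by NF-κB, and the cell cycle inhibitor gene Cdkn1a differed by -1.35 and -0.75. The other Cdkn1a probe differed by -0.16. Both genes stand on a list of p53 targets with 14 tested, a median of 0.12, 2 lower and 1 higher, Bbc3 (all genes: 3.74% higher, 2.04% lower). With median centring 6 of that list were lower and 1 higher.

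In the pathway of the endosomal receptors, 3 of 25 genes were higher and 1 lower (all genes: 3.74% higher, 2.04% lower), and 2 were higher and 12 lower with median centring. Lgmn and Ctsb, which encode lysosomal proteases of the kind that cleave endosomal TLRs, differed by 1.43 and 0.64, and Ctsb was not called with median centring (0.23, limma adjusted p = 0.313). Irak3, an inhibitor of MyD88 signals, was -1.39 and -1.32 in TLR9 KO and double knockout cells, against -2.39 and -2.63 in WT and TLR7 KO cells. The interferon regulatory factor gene Irf8 differed by -0.45. The adaptor Myd88 was 0.18 and 0.21 without TLR9 against 0.29 and 0.18 with it, and Unc93b1, the chaperone of endosomal TLRs, -1.41 and -1.58 against -1.22 and -1.21. Neither passed (limma adjusted p = 0.833 and 0.168). The Tlr9 probe (chr9:106128979-106129038, mm9) was -0.31 in TLR9 KO and -0.57 in double knockout cells, against -0.05 in WT and -0.30 in TLR7 KO cells. The groups differed by -0.26 (exact permutation test, 2-sided, p = 0.333, the smallest possible here). The probe was above background on all 4 arrays and did not register the knockout, and whether it lies in the deleted part is not given in the sources used here. Around Tlr9, 10 of 250 genes within 10 Mb were called (4%), against 51 of 1031 on all of chromosome 9 (4.95%).

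Growth genes were high in all 4 genotypes. Of 23 MYC and ribosome biogenesis genes, 22 had a difference below 0, with a median of -0.25, and 2 passed: Odc1, the first enzyme of polyamine synthesis (-0.53), and the nucleolar gene Nop16 (-0.48). The share called was 8.7%, against 5.78% of all genes. With median centring the median was -0.72 and 22 of the 23 were called lower. The list's medians stood at 2.25 and 2.21 above the pool in TLR9 KO and double knockout cells, against 2.53 and 2.45 in WT and TLR7 KO cells. Myc itself was 4.45 and 4.28 without TLR9 against 4.61 and 4.74 with it, and did not pass (-0.31, limma adjusted p = 0.158). The cytokine receptor gene Il2ra was 4.66 and 4.95 without TLR9 against 4.87 and 4.99 with it (-0.12, limma adjusted p = 0.614). None of 22 cytosolic ribosomal protein genes, 20 cholesterol and fatty acid synthesis genes, 18 endoplasmic reticulum folding genes or 12 heat shock genes passed in limma. At an unadjusted p below 0.05 these lists had 0, 3, 1 and 2 genes, where 22.5% of all genes tested had such a p. With median centring 22, 10, 13 and 10 of them were called lower, so the absence of calls in these lists depended on the scaling. The metallothionein genes Mt1 and Mt2 differed by 1.20 and 1.08, and the centromere histone gene Cenpa by 1.26. The mitosis list that holds Cenpa had a median of -0.03 over 17 genes. Its other called member, the ubiquitin-conjugating enzyme gene Ube2c, was lower (-0.44), with a difference of -0.52 already at 0 h.

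Most markers of other cells did not pass. Fcer1g, a signalling chain of Fc receptors that stands on the myeloid list, was -2.59 and -2.60 without TLR9 against -0.26 and -0.64 with it, while Tyrobp, Csf1r, Lyz2 and Cd68 differed by 0.25, -0.32, -0.15 and 0.09 and did not pass. Apoe, the apolipoprotein gene on the same list, was higher by 0.70 (limma adjusted p = 0.0320; 0.23 and not called with median centring). Adgre1 and Vcam1, also on the myeloid list, differed by -0.50 and -0.37 without passing, and by -0.73 and -0.91 at 0 h. Their second probes gave 0.10 and 0.02 at 6 h. Of the 15 myeloid genes tested, 9 had a 6 h difference below 0 and 6 above it. The endothelial adhesion gene Pecam1 was lower (-0.49, limma adjusted p = 0.0321). It was the 1 called gene of 6 tested on the stromal and endothelial list (16.7%, against 5.78% of all genes), whose median was -0.04. Vwf, Eng and Cdh5, dim genes of that list, differed by 0.09, -0.13 and -0.04 and did not pass. The medians of the myeloid list were -1.75 and -2.01 in TLR9 KO and double knockout cells, against -1.68 and -1.77 in WT and TLR7 KO cells. Those of the NK and plasmacytoid list were -0.71 and -0.57 without TLR9 against -0.65 and -0.65 with it. None of that list's 12 genes passed in limma, and 1 had an unadjusted p below 0.05 (22.5% of all genes tested). On the erythroid list the band 3 gene Slc4a1 differed by -0.53 and was as low at 0 h (-0.51). The part of other cells in the results was not tested. In a bulk sample, fewer cells of a type and less RNA per cell cannot be told apart.

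At 0 h the same groups on the same slides showed no called gene: 0 of 18724 passed in limma (0%), and 1296 had an unadjusted p below 0.05 (6.92%, against 22.5% at 6 h). That count changed when 1 array was left out, again with the lone array assumed to vary like the other group. Without the double knockout 0 h array 850 genes passed, 167 higher and 683 lower, and without the TLR9 KO 0 h array 36 passed. Of the 850, 34 were also called at 6 h, 19 of them in the same direction. Over 19556 genes with both values the 6 h and 0 h differences had a Pearson r of 0.04 across genes, which are not independent replicates. Of 1127 genes called at 6 h with a 0 h value, 13 had a 0 h difference at least as large in the same direction. Called genes were chosen for a large 6 h difference, at least 0.42, so this count is low by selection and is no test. The difference at 6 h less that at 0 h passed in limma for 240 of 20324 genes (1.18%), 142 of them positive (0.699%) and 98 negative (0.482%), and 237 of the 240 were also called at 6 h. That is 20.9% of the 6 h calls and 98.8% of the calls of this contrast. The contrast uses the same 6 h arrays as the 6 h calls, so this overlap is no further test. Without 1 of the 8 arrays the contrast's count ranged from 40 (without the WT 0 h array) to 1410 (without the double knockout 0 h array).

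**Figure D3:**
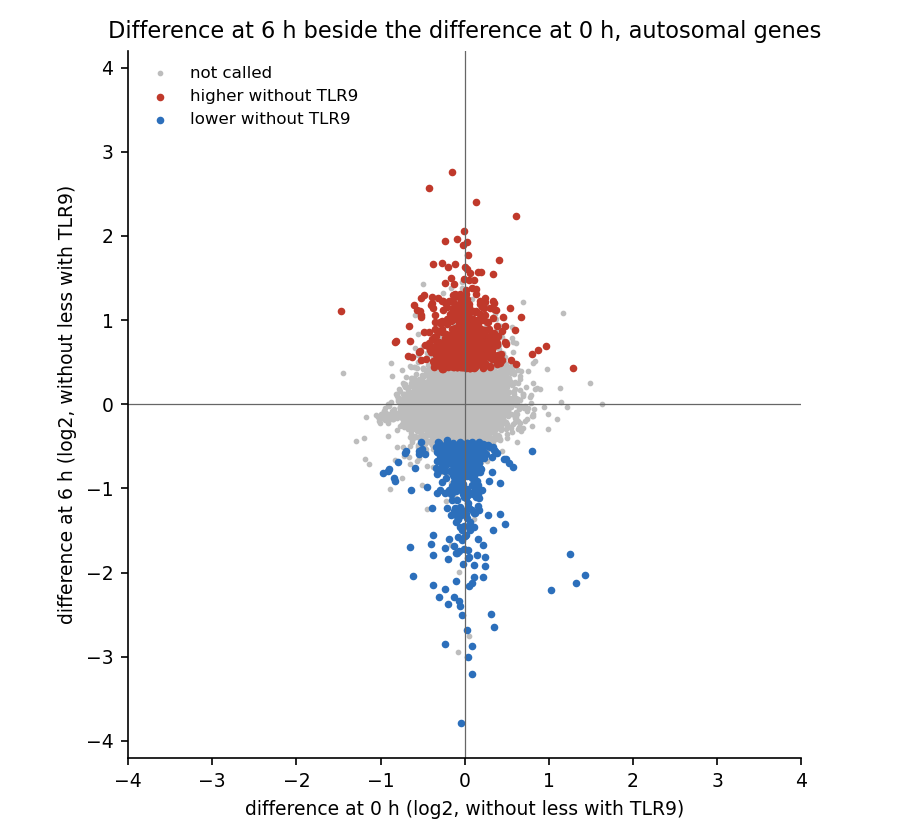
Difference between cells without and with TLR9 (log2) at 6 h against that at 0 h for each autosomal gene tested at 6 h; 70 genes without a 0 h value are not drawn. Genes called at 6 h (red higher, blue lower) spread along the vertical axis, and the 0 h differences have an SD of 0.21 over genes against 0.30 at 6 h.

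The genotypes were next compared pair by pair, TLR9 KO with WT and double knockout with TLR7 KO, so that each pair shares its TLR7 state. At least 2-fold differences were seen for 349 genes in the TLR9 KO against WT pair (218 higher, 131 lower) and for 412 in the double knockout against TLR7 KO pair (224 higher, 188 lower). Of these, 166 went the same way in both pairs, 71 higher and 95 lower, and 22 went opposite ways. Within slides, 78 genes differed at least 2-fold between TLR7 KO and WT and 137 between double knockout and TLR9 KO. These counts are from single arrays and have no test.

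Interferon-stimulated genes set the pairs apart. Of 28 tested, 24 had a 6 h difference above 0 (median 0.64), yet 1 passed (3.57%, against 5.78% of all genes). The gene that passed was Stat2, a mediator of the interferon signal (0.53 ± 0.11, limma adjusted p = 0.0428). With median centring Stat2 gave 0.16 and was not called (limma adjusted p = 0.387). The list's median level was -1.20 in TLR9 KO and 0.57 in double knockout cells, against -1.06 in WT and -1.05 in TLR7 KO cells. The double knockout array was high and the other 3 were low. Ifi44, chosen after its values were seen, was -0.94 in TLR9 KO and 2.52 in double knockout cells, against -0.68 in WT and -0.49 in TLR7 KO cells. Ifit3, an antiviral gene chosen in the same way, was -1.68 and 0.91 in TLR9 KO and double knockout cells, against -1.61 and -1.94 in WT and TLR7 KO cells. The antiviral GTPase gene Mx1 was -1.37 and 1.12 in TLR9 KO and double knockout cells, against -1.08 and -0.92 in WT and TLR7 KO cells. A second pattern was seen in the brightest probe of Ifih1, which encodes the RNA sensor MDA5. It was -0.32 and 1.02 in TLR9 KO and double knockout cells, against 1.92 and 2.12 in WT and TLR7 KO cells. That probe differed by -1.67 and the other Ifih1 probe by -0.36. Isg15, a ubiquitin-like protein, was low on the TLR9 KO array alone, at -0.74, with 1.08 in double knockout cells, against 0.95 and 1.03 in WT and TLR7 KO cells. Neither Ifih1 nor Isg15 passed (limma adjusted p = 0.0586 and 0.394).

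**Figure D4:**
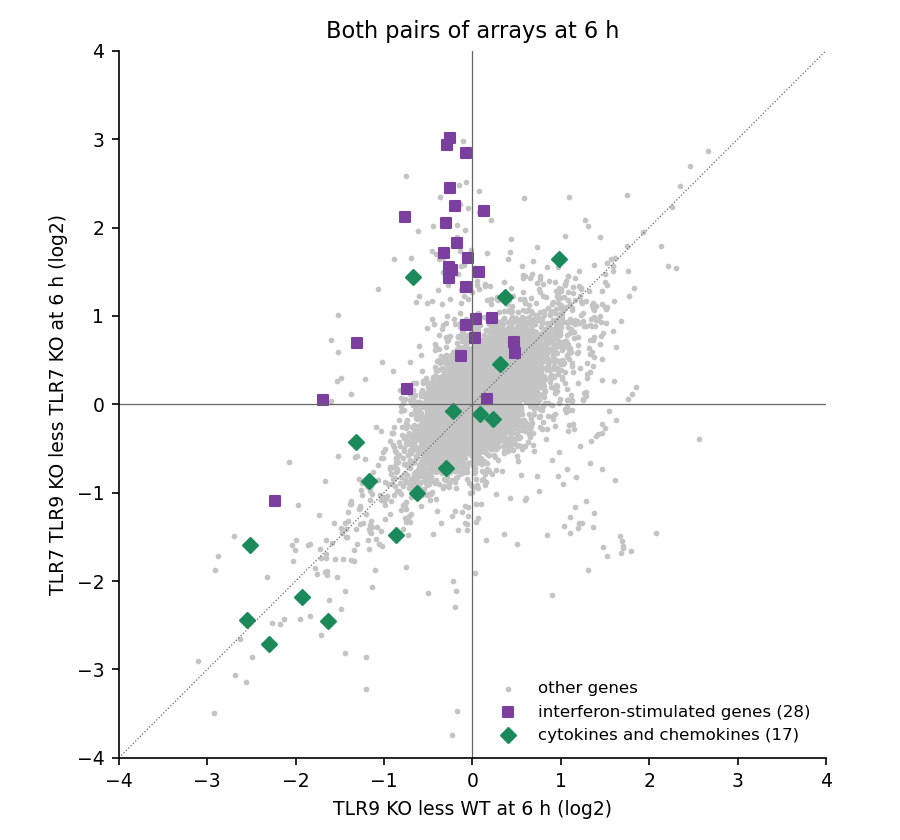
Log2 difference at 6 h of TLR9 KO less WT (horizontal) and of double knockout less TLR7 KO (vertical) for each autosomal gene tested, 1 array against 1; 3 genes fall outside the axes, and the dotted line marks equal differences. Cytokines and chemokines (green diamonds) lie along the line, while most interferon-stimulated genes (purple squares) lie near 0 horizontally and above 0 vertically.

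The called genes were largely ones that had responded by 6 h in cells with TLR9. Of the 734 higher genes, 61.4% had fallen at least 2-fold between 0 and 6 h in cells with TLR9, against 12.2% of all genes tested. Of the 401 lower genes, 47.9% had risen at least 2-fold there, against 10.9% of all genes. These shares use the same 6 h arrays as the calls, so they describe the genes and are no further test. Rgs2 shows both directions, having changed by 1.15 without TLR9 and by -1.76 with it. Lag3 changed by -0.52 without TLR9 and by 2.46 with it.

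At 24 h, 90.7% of the higher genes were above 0 in the same comparison (47.1% of all genes), and 80.5% of the lower genes were below 0 (52.9% of all genes). At 42 h the shares were 69.3% and 68.1% (49.6% and 50.4% of all genes). These shares use the mean of the 2 arrays without TLR9, so 1 of them alone can set the sign. They do not say that both arrays kept the difference. For Tnf, Lag3 and Ccr6 at 24 h, the TLR9 KO array lay beside the arrays with TLR9 and the double knockout array apart from them. Tnf at 24 h was 2.08 in TLR9 KO and -0.43 in double knockout cells, against 1.90 in WT and 1.82 in TLR7 KO cells. Lag3 at 24 h was 2.80 in TLR9 KO and 0.41 in double knockout cells, against 2.50 in WT and 2.44 in TLR7 KO cells. Ccr6 at 24 h was -1.45 in TLR9 KO and 0.05 in double knockout cells, against -1.65 in WT and -1.36 in TLR7 KO cells. Nfkbiz at 24 h was -0.69 in TLR9 KO and -0.87 in double knockout cells, against -0.33 in WT and -0.27 in TLR7 KO cells, below its 0 h level on all 4 arrays. Plau stayed higher without TLR9, at 1.23 and 3.04 at 24 h against 0.88 and 0.61, and at 2.30 and 2.94 at 42 h against 0.05 and 0.16.

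**Figure D5:**
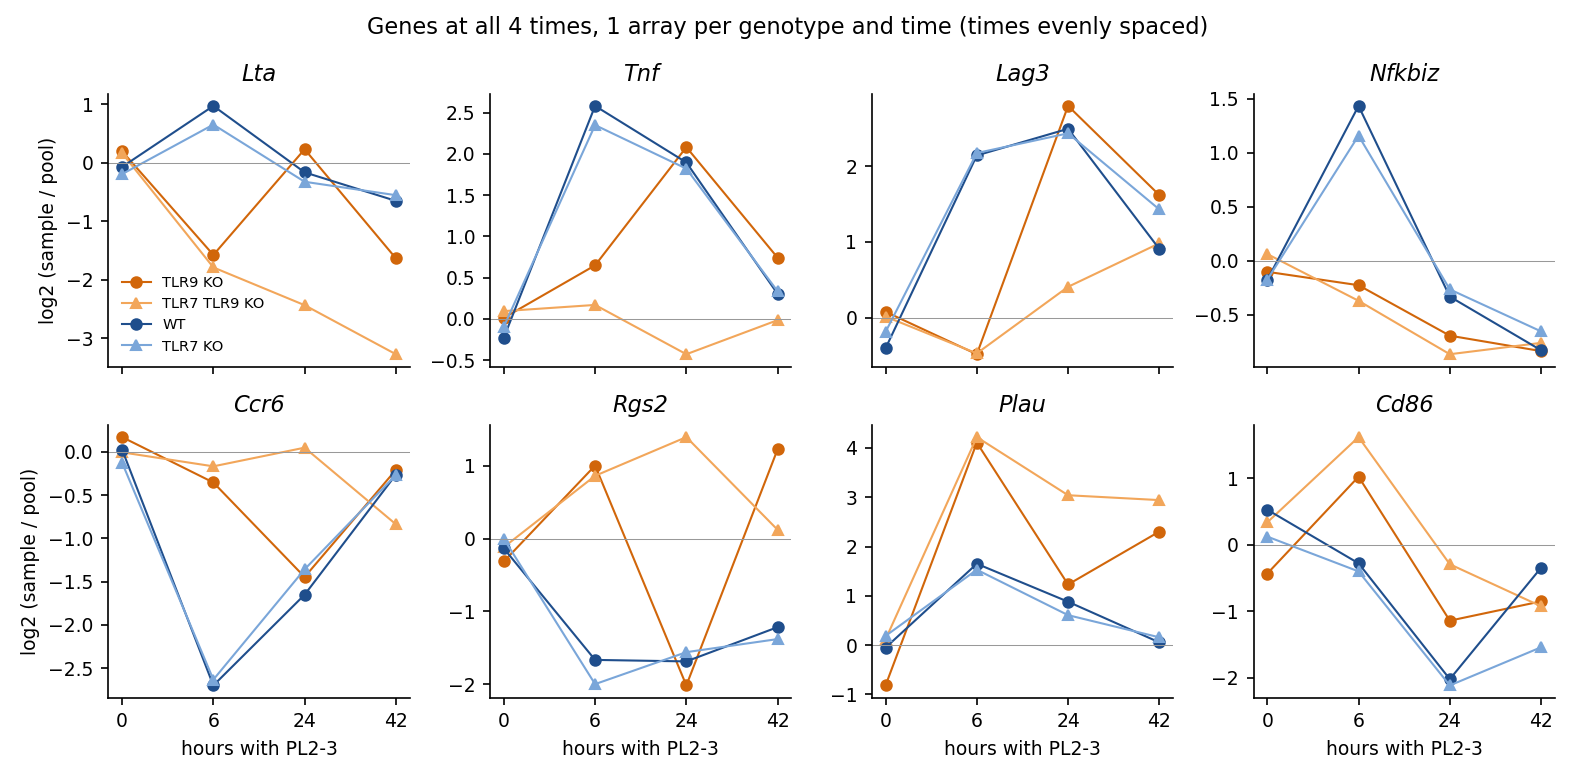
Log2 of sample over pool for 8 genes at 0, 6, 24 and 42 h, 1 array per genotype and time, with times evenly spaced on the axis (orange without TLR9, blue with TLR9). At 6 h both orange points stand apart from both blue points in each panel, and at 24 h the TLR9 KO point of Tnf (2.08) lies with the blue points (1.90 and 1.82).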

How the data were processed

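RNA of splenic AM14 B cells was hybridised to 2-colour Agilent arrays, per the labels, and read with Agilent Feature Extraction 10.1.1.1, per the file headers. The deposited scanner files give spot intensity and background per channel, other columns of flags, and log10 ratios; the deposited series table holds the log10 ratio of processed signals (100% of spots within 0.001, column medians -0.145 to 0.022). Its direction is Cy5 over Cy3. From the deposited intensity, limma 3.58.1 (R 4.3.3) corrected background (normexp, offset 50) and normalised within arrays (loess), without control spots and outlier-flagged spots. No spot was saturated.

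A gene was its brightest probe and was tested when 2 or more of the 4 arrays read it well above background in Cy5 or Cy3. Of 55681 probes, 24302 had no symbol, and 2402 on X or Y were left out. Probe coordinates are mm9. Differences were fitted with lmFit and eBayes (2 residual degrees of freedom at 6 h, 4 for the 6 h less 0 h contrast) and called at a Benjamini-Hochberg adjusted p of 0.05. The genes named are the 10 largest called in each direction (1 of the lower genes is not reported here), the 5 largest contrasts each way, up to 4 of each list by smallest p, and Tlr9, Myd88, Unc93b1, Myc, Ccl3, Ccl4, Il2ra, Egr2, Il6, Il10, Cd69 and Cd86. Called list members beyond these, and list members given as examples that did not pass, were added after their values were seen. The members and lists were chosen with earlier results of these data known. Fits were tested on simulated data. Alternatives covered background, scaling, dim probes, probe choice, spread, Cy5 alone, the Tlr7 state and leaving out each array. The other arrays, at 24 and 42 h, served as values only.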

Additional observations from a re-analysis of the deposited data

Results flagged for a closer look

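The difference between cells without and with TLR9 was not the same at 6 h and at 0 h for 240 genes, by limma's test of the 6 h difference less the 0 h difference over 8 arrays. Positive values mean that the signed difference, without less with TLR9, was higher at 6 h than at 0 h. Negative values mean that it was lower at 6 h, whatever its size. Among the genes named in the report, the positive values (log2) were Plau 2.99, Rgs2 2.91, Ccr6 2.27, Sorl1 2.18, Fosl2 2.06, Lyl1 2.05, Neat1 1.89, Hvcn1 1.73, Dusp6 1.68, Cr2 1.66, S1pr3 1.63, Cd5 1.58, Lgmn 1.56, Tnfrsf18 1.49, Cenpa 1.31, Fas 1.14 and Irak3 0.96. The negative values (log2) were Hsd11b1 -3.30, Lag3 -2.98, Rhbdl3 -2.96, Lta -2.81, Jun -2.70, Ifnlr1 -2.62, Ebi3 -2.48, Tnf -2.27, Il2 -2.17, Batf -2.01, Fcer1g -1.77, Nfkbiz -1.75, Pdcd1lg2 -1.56, Gadd45b -1.39, Cxcl16 -1.23, Runx3 -1.16, Icosl -1.04, Nfkb1 -1.03, Sdc1 -0.97 and Cd274 -0.77. The 0 h arrays lie on the same slides as the 6 h arrays of their genotypes, so an offset added equally at both times cancels here. An offset of 1 array does not. A slide difference in the scale of the ratios need not cancel either, because ratios spread little at 0 h. Their SD over probes was 0.153 to 0.279 at 0 h. At 6 h it was 0.685 in WT and 0.704 in TLR7 KO, against 0.625 in TLR9 KO and 0.635 in double knockout cells. Such a difference in scale was not tested.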

How the results depend on the processing

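Pairing was by Tlr7 state alone: with it as a term in the fit, 991 genes were called at 6 h, 901 of them shared with the 1135. No pairing by replicate was possible, as each genotype had 1 array at each time. The count of 1135 genes at 6 h became 6591 with median centring (553 higher, 6038 lower), 3600 with median centring over the genes tested, a setting chosen after seeing the data (1007 higher, 2593 lower), 418 with a normexp offset of 16, 0 with processed signals and 249 when a fold of at least 2 was also asked. Leaving out 1 array, which leaves 1 array in its group and takes the spread from the other, gave 220 to 1439 genes. With processed signals 1133 of the 1135 genes kept their sign, and no gene named in the report stayed called. The other settings gave 858 to 1498 genes. Of 103 genes named and called, median centring reversed Gapdh (-0.11) and Cd79a (-0.01) and ended the call of 16 others, all of them higher without TLR9. At 0 h the count of 0 became 0 to 850 when 1 array was left out, with 36 without the TLR9 KO array. The contrast's count of 240 became 1 with processed signals, 157 with the offset of 16, 368 with probes well above background in Cy5 on every array, 58 with Cy5 alone and 40 to 1410 without 1 array. In the single pairs at 6 h: double knockout against TLR7 KO had 713 genes at least 2-fold apart with median centring. Within 5 Mb of Tlr9, 6 of 163 genes were called (3.68%, against 5.78% of all genes tested). The cause of these changes was not tested. In simulated data of the 6 h comparison over 19626 genes, 89.6% of differences of 1 log2 unit were called. For differences of 0.5 the share was 7.58%. The simulation changed 66 or 67 genes at each size, against 1135 genes called in the data, so adjusted p was harder to pass there. The shares therefore do not carry over to the data, where the smallest called difference was 0.42.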
